A study of Mus musculus with 82 samples.

Results

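Dnah8 is a gene of 249 kb on mouse chromosome 17 (30626935 to 30875762 on GRCm38, read from the lower to the higher coordinate) and held 26 of the 15026 Adnp peaks of the deposited list. It was chosen by those values: of 21523 protein-coding genes on chromosomes 1 to 19 and X it held the most Adnp peaks, so its count and density, and the scores, widths and spacing that come from the same list, are given as a description without a test. The members described are the 33 Adnp peaks and 2 HP1γ peaks inside the gene or within 100 kb of its ends, and the gene is set beside 432 other protein-coding genes of 200 to 300 kb and 14 other dynein axonemal heavy chain (Dnah) genes.

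The study used mouse embryonic stem cells with a hybrid 129-C57BL/6 background, grown in 2i medium with LIF, which keeps them pluripotent, and its 82 samples cover ChIP-seq with inputs, RNA-seq and ATAC-seq. The Adnp list is 1 pooled list for 3 ChIP replicates of untreated cells labelled Adnp FlagAvi, in which Adnp carries a tag that was captured on streptavidin beads. The second list holds 2047 HP1γ peaks that lack the Adnp motif, and is tied to 3 replicates of untreated cells labelled Cbx3 FlagAvi and 3 labelled Cbx3 FlagAvi, Adnp KO, where Cbx3 is the gene of HP1γ. The sample titles call the tagged cells that keep Adnp wild type (wt) and the others Adnp knock-out. Both lists are pooled over replicates and give no read counts, so replicate error cannot be given and the depth is unknown. The peak names in the HP1γ list carry the knockout label, and the genotype in which each peak was seen is not known here. Whether a tagged line was 1 clone was not stated in the labels used.

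Dnah8 encodes a heavy chain of the outer dynein arm, the motor that slides the microtubule doublets of cilia and flagella past each other, and is known for its part in the sperm tail. Adnp is a zinc finger and homeodomain protein. With the chromatin remodeller Chd4 and HP1 proteins it forms the ChAHP complex, in which Adnp binds DNA, and HP1γ is a chromatin protein that also binds methylated histone H3.

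The start of Dnah8 carried no listed peak of either kind, and its sequence is shown because all distances below are counted from it. The RefSeq window for this start (GRCm38.p6, 250 bases before to 50 after) lies at chr17:30626686-30626985 on the forward strand. Capitals mark a repeat of 31 bases in which the copies differ at 1 base; they lie at positions 198 to 228 and 235 to 265, counted from 1 at the 5′ end of the window.

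Dnah8 promoter: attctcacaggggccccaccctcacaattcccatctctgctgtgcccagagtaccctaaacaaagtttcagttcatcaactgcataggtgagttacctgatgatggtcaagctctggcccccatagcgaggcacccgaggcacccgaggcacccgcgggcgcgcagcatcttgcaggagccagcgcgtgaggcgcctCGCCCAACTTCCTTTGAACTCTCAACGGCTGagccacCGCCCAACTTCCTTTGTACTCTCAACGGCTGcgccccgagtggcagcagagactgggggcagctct

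Its exact part, CGCCCAACTTCCTTTG, has 16 bases. A repeated exact word of that length, with copies that do not overlap, was present in 786 (2.41%) of 32619 promoter windows. The Dnah8 window had a GC content of 60.3% and 16 CpG, against medians of 53% and 7 over all windows. The nearest Adnp peak began 2150 bp beyond its end. An Adnp peak touched 0.981% of all promoter windows and 0 of the 14 windows found for Dnah genes.

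Within the gene the peaks were unevenly placed, with 11 of the 26 in the first of 5 equal parts of 49.8 kb. The first group held 3 peaks whose centres lay 2.44, 4.6 and 7.04 kb from the start, with authors' scores of 60.6, 32.3 and 16.7. The score is a number per peak whose kind is not stated, and its median over the list was 21.2. The second group, at 22.004, 26.2 and 27.9 kb, had scores of 176, 101 and 63.7. The first of these, at 30648663 to 30649215, had the highest score of any peak in the gene and ranked 69 in the whole list. The third group held 5 peaks between 38.4 and 48.6 kb, with scores of 24.2, 104, 34.9, 64.8 and 28.7.

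The other 4 parts held 3 or 4 peaks each. In the second part the scores were 64.8, 20.1 and 50.8. In the third they were 120.4, 62.4, 82.2 and 39.5, and this part had the highest median, 72.3, of the 5. The peak with the score of 120.4, at 30735449 to 30736126, lay 109 kb from the start and ranked 224 in the list. The fourth part had scores of 27.4, 59.0, 27.7 and 61.9. Its last 2 peaks were the closest pair in the gene, with 74 bp between their edges.

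The last part had the lowest median score, 21.4. Its first 3 peaks had scores of 15.98, 20.6 and 22.2, close to the median of the list. The third of them shared its last base with the lower end of Gm41561, a lncRNA gene inside Dnah8 on the reverse strand. The fourth, at 30874214 to 30874940, had a score of 81.3 and ended 822 bp before the end of Dnah8. Scores over 80 were thus seen near the start, in the middle and at the very end of the gene.

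**Figure D1:**
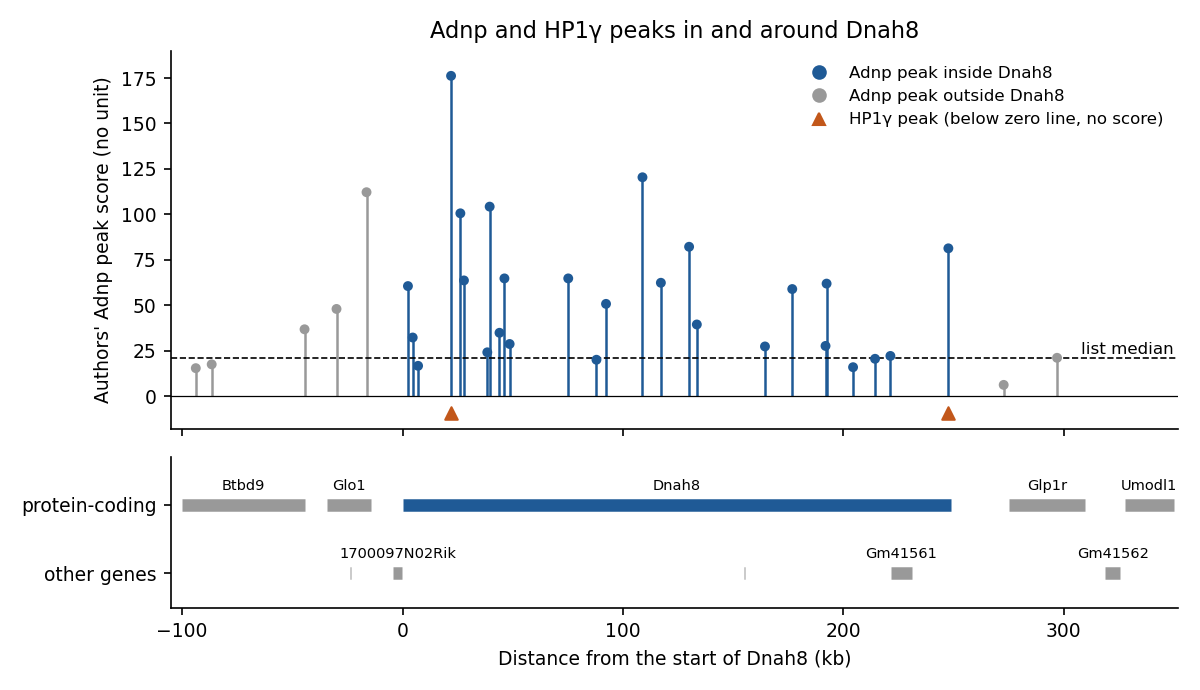
Top: authors' score of each Adnp peak against the distance of its centre from the start of Dnah8 in kb, with HP1γ peaks as triangles under the zero line, placed without a score; the dashed line is the list median of 21.2. Bottom: annotated genes (Btbd9 and Umodl1 are cut at the edges of the plot). The 26 peaks inside the gene run from 15.98 to 176, and both HP1γ peaks lie under Adnp peaks, at 21.9 and 247.5 kb.

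The distance between neighbouring peak centres in Dnah8 had a median of 8.35 kb over 25 intervals, with quartiles of 2.44 and 12.8 kb. The shortest was 0.484 kb and the longest 30.9 kb. In the list on chromosomes 1 to 19 and X the median distance was 29.8 kb (quartiles 8.85 and 90.6 kb). Of the intervals in Dnah8, 11 (44%) were under 5 kb, against 16.1% in the list, and 3 were over 20 kb. The 3 long intervals separate the peaks at 48.6 and 75.2 kb, at 134 and 164 kb, and at 221 and 248 kb. Close spacing follows from the density by which the gene was chosen. The peaks covered 12108 bp, or 4.87% of the gene.

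Adnp peaks in Dnah8 had higher scores than the list as a whole and were slightly wider. Their median score was 54.9 (range 15.98 to 176, quartiles 27.5 and 64.8), against 21.2 for the other 15000 peaks (quartiles 13.9 and 33.6). Of the 26 peaks, 22 lay above the median of the list, 16 above its upper quartile of 33.6 and 13 (50%) in its upper 10%, above 54.7. A score over 100 was reached by 4 of them and by 2.44% of the list. The median width was 440.5 bp (range 325 to 754) against 396 bp in the other peaks, and 16 of 26 were wider than the median of the list. Within the gene, wide peaks had high scores (Spearman's rho 0.82 over 26 peaks, which share 1 pooled list; 0.55 over all 15026).

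**Figure D2:**
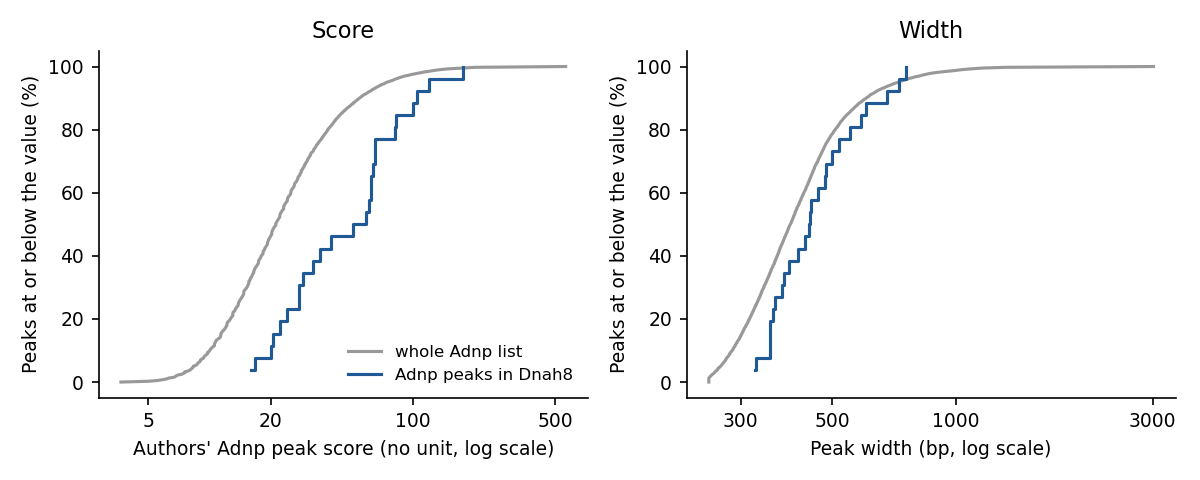
Share of peaks at or below each value, in percent, for the authors' score (left) and the width in bp (right), both on log axes. The line of the 26 Dnah8 peaks lies to the right of the whole list for scores over most of its range, with medians of 54.9 and 21.2, and closer to it for widths, with medians of 440.5 and 396 bp.

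The peaks of Dnah8 formed most of an isolated group. The first listed Adnp peak within 100 kb of the gene began at 30532964 and the last ended at 30924117, a stretch of 391 kb with 33 peaks. The nearest peak on the lower side ended 552 kb away, at 29980989, and the nearest on the higher side began 332 kb away, at 31255834. Of the gaps between neighbouring Adnp peaks in the list, 5.64% were at least as long as the first and 8.43% at least as long as the second. No peak therefore lay just outside the limit of 100 kb: the outermost peak inside it was centred 93.8 kb before the start, and the next ones outside were 646 kb before the start and 380.1 kb beyond the end. Those had scores of 31.1 and 16.5, against 15.5 and 21.1 for the outermost peaks inside.

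Density was highest inside the gene and lower in its flanks. Dnah8 held 10.4 Adnp peaks per 100 kb (95% Poisson interval 6.83 to 15.3, counting error only). The 100 kb before the gene held 5 peaks and the 100 kb after it 2, together 3.5 per 100 kb (1.41 to 7.21). The inside was thus 2.99 times as dense, though the intervals of inside and flanks overlap. With flanks of 50 kb on each side the flank density was 5 per 100 kb, and with flanks of 250 kb it was 1.4. In the 50% of the list with the higher scores it was 1.5, against 8.84 inside the gene. Chromosome 17 as a whole held 0.799 per 100 kb, and Dnah8 was 13.1 times as dense. The gene took up 0.271% of the chromosome's span from 3 Mb on and held 3.54% of its 734 peaks.

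The flanking peaks lay in other genes with 1 exception. On the lower side 3 touched Btbd9, with scores of 15.5, 17.6 and 36.8, and the last of them reached across the gene's upper end. Glo1, which encodes the glyoxalase that clears methylglyoxal, held 2 in 19.8 kb, with scores of 48.0 and 112, a density of 10.1 per 100 kb. The second of these, at 30610330 to 30610835, lay 1824 bp inside the end of Glo1 that faces Dnah8, where that gene starts. On the higher side 1 peak lay between genes, at 30899551 to 30899801, shortly before the start of Glp1r, the receptor gene of glucagon-like peptide, and had a score of 6.26. The other lay inside Glp1r, with a score of 21.1. The 7 flanking peaks had a median score of 21.1, against 21.2 in the list. Umodl1 and the lncRNA genes 1700097N02Rik and Gm41562 held none.

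**Figure D3:**
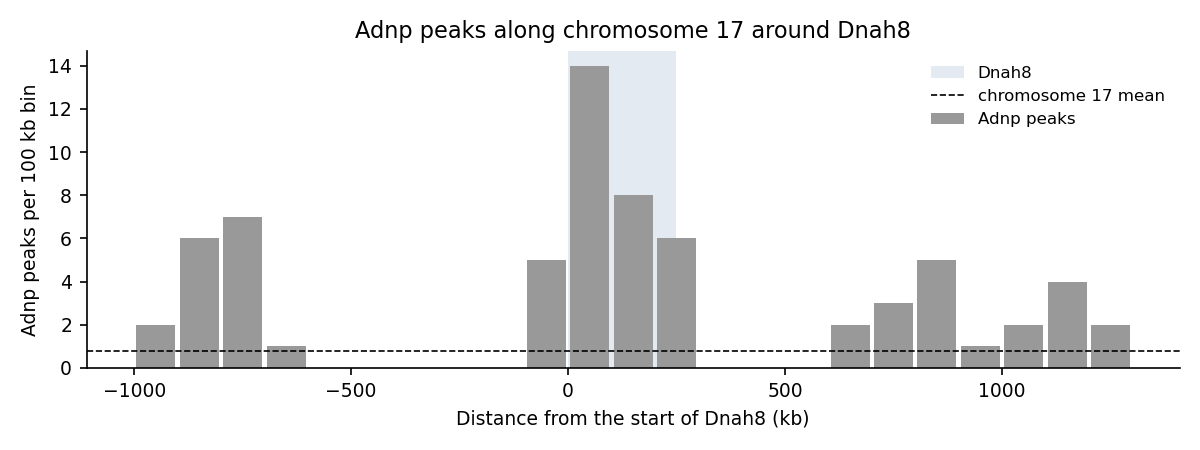
Number of Adnp peaks whose centres fall in each bin of 100 kb, against the distance from the start of Dnah8 in kb; shading marks Dnah8 and the dashed line the chromosome 17 mean of 0.799 per 100 kb. The 3 bins that touch the gene hold 14, 8 and 6 peaks, the bin before it holds 5, and empty bins follow on both sides.

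Among the 433 protein-coding genes of 200 to 300 kb, 42.7% held an Adnp peak, and Dnah8 ranked 1 in peaks per 100 kb. This is the contrast by which it was chosen. The other 432 genes had a median of 0 peaks and an upper quartile of 1, and 248 of them (57.4%) held none. Their peaks together came to 448, or 0.428 per 100 kb, so Dnah8 was 24.4 times as dense as they were in sum. Counts of 5 or more were seen in 22 of them and of 10 or more in 3.

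The genes of this length nearest to Dnah8 in Adnp density were Pitpnc1, Rnf220, Osbpl10, Tacc2 and Skap1, ordered by the difference in peaks per 100 kb. Pitpnc1, a phosphatidylinositol transfer protein gene on chromosome 11, held 18 peaks, or 6.85 per 100 kb (4.06 to 10.8). This interval overlaps that of Dnah8, so the order of the first 2 genes is not separated by counting error. Rnf220, a ubiquitin ligase gene on chromosome 4, held 11 (4.88 per 100 kb, 2.43 to 8.72), and Osbpl10, of the oxysterol-binding protein family, held 11 (4.32, 2.16 to 7.72). Tacc2 and Skap1 followed at 3.73 (1.61 to 7.34) and 3.05 (1.39 to 5.79) per 100 kb. The intervals of Rnf220, Osbpl10 and Tacc2 also overlap that of Dnah8, so counting error does not separate these genes from it either. That of Skap1 lies below it.

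The peaks of these 5 genes had lower median scores than those of Dnah8. Their median scores ran from 14.6 in Tacc2 to 28.9 in Rnf220, against 54.9 in Dnah8. Around Pitpnc1 the flanks were denser than the gene, with 38 peaks in both flanks of 100 kb together, or 19 per 100 kb. Rnf220, Osbpl10 and Tacc2 were denser inside than in their flanks, as Dnah8 was, with 1, 2.5 and 1.5 per 100 kb in the flanks. The flanks of Skap1 held 4.5 per 100 kb, against 3.05 inside. When Adnp peaks within 10 kb of each other were joined, Dnah8 held 12 regions, or 4.82 per 100 kb, and the next gene reached 4.57.

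**Figure D4:**
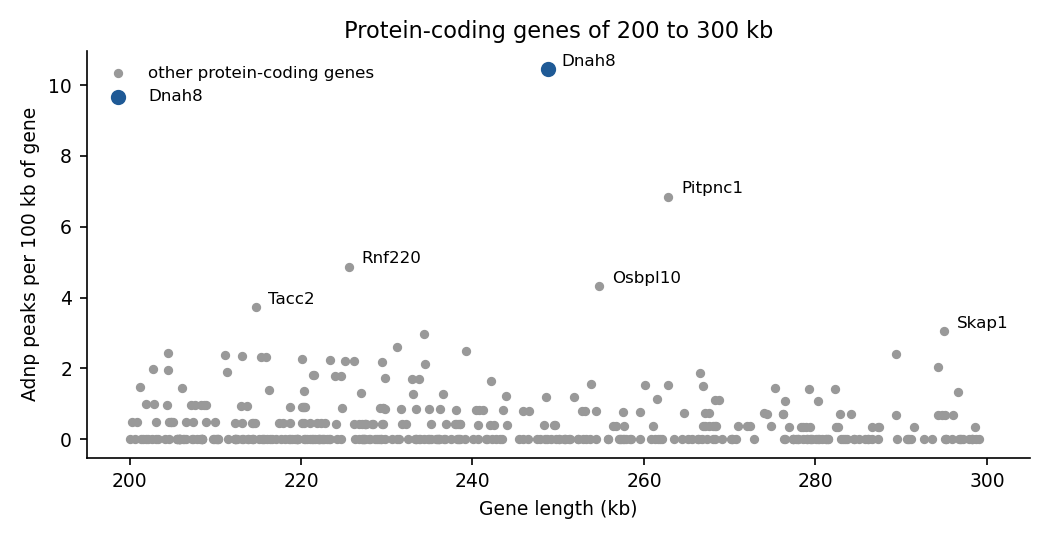
Adnp peaks per 100 kb of gene against gene length in kb for the 433 protein-coding genes of 200 to 300 kb, 1 point per gene. Dnah8 lies at 10.4, the next gene, Pitpnc1, at 6.85, and 248 genes lie at 0.

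That Dnah8 is the densest gene for Adnp holds for long genes and not for all. Of 2425 protein-coding genes of 100 kb or more, 0 were denser. Of 4931 genes of 50 kb or more, 10 were denser. Over all lengths 524 were, with a median length of 8.6 kb, and 286 of these held 1 peak, since 1 peak in a short gene gives a high density. As a stretch of DNA the gene was also not alone. Windows of its length were laid every 50 kb over chromosomes 1 to 19 and X, and 11 of 51330 windows held 26 or more peak centres. These fell in 4 separate places, on chromosomes 5, 6, 11 and at Dnah8 itself, and the highest count, 30, was on chromosome 11.

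The other Dnah genes had few Adnp peaks, apart from Dnah2 and Dnah10. The 14 genes held 26 peaks in 3205 kb, as many as Dnah8 in 249 kb, or 0.811 per 100 kb. Dnah2, an inner-arm heavy chain gene on chromosome 11, held 10 (7.79 per 100 kb, 95% Poisson interval 3.74 to 14.3). Dnah10, an inner-arm heavy chain gene on chromosome 5, held 8 (7.32, 3.16 to 14.4). Both intervals overlap that of Dnah8. Like Dnah8, both were denser inside than in their flanks, which held 2.5 and 1 per 100 kb. Their median scores were 27.8 and 32.2.

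Below these, densities dropped to levels whose intervals lie under that of Dnah8. The intervals cover counting error only and Dnah8 was chosen by its density, so this is a description without a test. Dnah12 held 3 peaks (1.49 per 100 kb, 0.308 to 4.36), fewer than its flanks at 4 per 100 kb. Dnah17, an outer-arm gene of the sperm tail, held 1 (0.917 per 100 kb, 0.0232 to 5.11). Dnah6, Dnah14, Dnah7b and Dnah5 held 1 each, between 0.489 and 0.315 per 100 kb. The single peak of Dnah14 had a score of 109, the others between 16.6 and 25.2. Dnah5, an outer-arm heavy chain gene of 317 kb, is longer than Dnah8.

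None was listed in Dnah7c, Dnah7a, Dnah3, Dnah9, Dnah11 or Dnah1. A count of 0 allows up to 3 peaks, which is 0.785 per 100 kb for Dnah7c and 0.89 for Dnah9, an outer-arm gene of motile cilia. For Dnah1, of 65.5 kb, it reaches up to 5.63 per 100 kb. Of the cytoplasmic heavy chain genes, Dync1h1 held 1 peak and Dync2h1, with 249.8 kb of nearly the same length as Dnah8, held none.

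**Figure D5:**
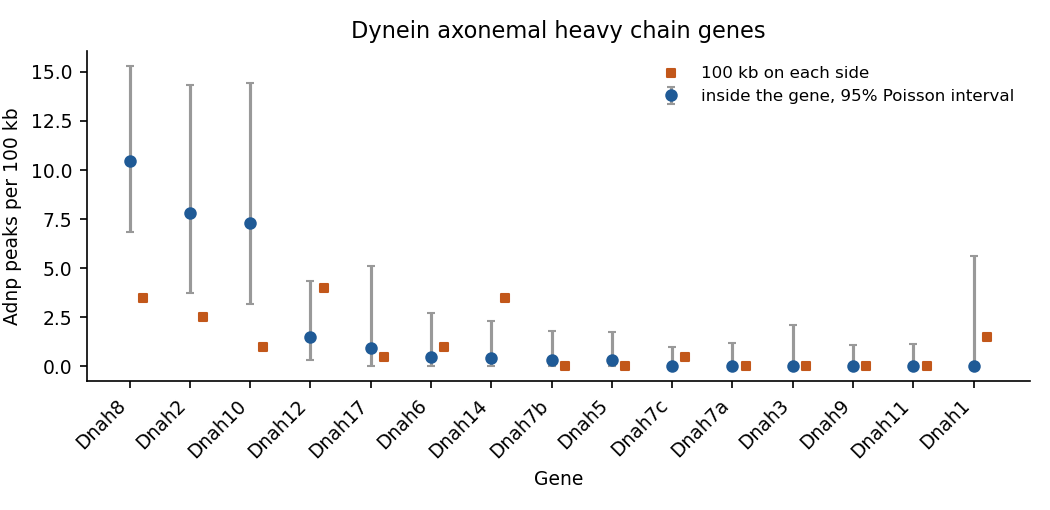
Adnp peaks per 100 kb inside each of the 15 Dnah genes (circles, with 95% Poisson intervals that cover counting error only) and in the 100 kb on each side (squares), ordered by the value inside. Dnah8, Dnah2 and Dnah10 lie at 10.4, 7.79 and 7.32, and all others at 1.49 or less.

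Of 27 genes for intermediate and light chains, docking proteins and assembly factors, 10 (37.0%) had an Adnp peak inside or within 5 kb, against 29.2% of all protein-coding genes. Ttc25, a docking complex gene, had 5, with a top score of 30.8. Dnaaf4, an assembly factor gene on chromosome 9, had 4, with a top score of 66.3. Dnaic2, an intermediate chain gene, had 2, and Ccdc114, Dnaaf1, Dnaaf3, Dnaaf5, Dynll1, Dynll2 and Wdr63 had 1 each. The other 17 had none.

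Dnaaf4 was the 1 gene of these lists with an Adnp peak over a promoter window, and its sequence is shown beside that of Dnah8, which has none. The window lies at chr9:72958535-72958834 on the forward strand of GRCm38.p6, from RefSeq. Capitals mark the 223 bases inside the Adnp peak at 72958227 to 72958757, which has a score of 19.04.

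Dnaaf4 promoter: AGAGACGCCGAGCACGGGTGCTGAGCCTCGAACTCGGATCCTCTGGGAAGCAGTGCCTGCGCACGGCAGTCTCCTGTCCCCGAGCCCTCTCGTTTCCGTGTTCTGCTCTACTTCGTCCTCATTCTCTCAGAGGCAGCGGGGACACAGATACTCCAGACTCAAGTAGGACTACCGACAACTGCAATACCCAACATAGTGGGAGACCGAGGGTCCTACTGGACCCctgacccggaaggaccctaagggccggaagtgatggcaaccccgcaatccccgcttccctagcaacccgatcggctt

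The peak covered the first 223 bases of this window and ended before the start that the window is built on. The gene table gives Dnaaf4 a lower end at 72957372, so the peak lies inside the gene as annotated there. Its GC content of 60.3% equals that of the Dnah8 window, and it held 20 CpG against 16.

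Dnah8 held 2 HP1γ peaks, and both lay on Adnp peaks. The first, at 30648758 to 30648958, was 201 bp wide and lay whole inside the Adnp peak with the highest score in the gene, 176; the centres were 81 bp apart. The second, at 30874179 to 30874657, shared 444 of its 479 bp with the Adnp peak of score 81.3 near the end of the gene, and the centres were 159 bp apart. The HP1γ peaks lay 226 kb from each other, with 21 Adnp peaks between them. The remaining 24 Adnp peaks of the gene overlapped no listed HP1γ peak.

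Both flanks were without a listed HP1γ peak. The nearest outside the gene were 612 kb before its start, at 30014628 to 30014861, and 899.9 kb beyond its end, at 31775660 to 31776305. Over chromosomes 1 to 19 and X, 303 of 2000 HP1γ peaks (15.2%) overlapped an Adnp peak. Of the 110 protein-coding genes with 2 or more HP1γ peaks inside, 84 had none of them on an Adnp peak and 6, Dnah8 included, had all of them there. No test was made, since a single gene has no replicate. The list holds peaks selected to lack the Adnp motif, and pooled lists cannot tell whether a cell carried both proteins at once. The genotype in which each HP1γ peak was seen is not known here, so these peaks may come from cells without Adnp.

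In the density of listed HP1γ peaks Dnah8 ranked 5 among the 433 genes of 200 to 300 kb, of which 9.01% held one. The order covers only peaks selected to lack the Adnp motif and is not one of all HP1γ peaks. It had 0.804 per 100 kb (95% Poisson interval 0.0973 to 2.9). Xkr6 on chromosome 14 held 5 HP1γ peaks (2.09 per 100 kb) and no Adnp peak. Sh3rf1 on chromosome 8 and Ppp1r9a on chromosome 6 held 3 each, with 1 and 2 of them on Adnp peaks. Trerf1, a gene of a transcriptional regulator on chromosome 17, held 2, neither on an Adnp peak. With 2 peaks, the place of Dnah8 in this order is not separated from its neighbours. Of the other Dnah genes, Dnah6 and Dnah7b held 1 HP1γ peak each, neither on an Adnp peak. Of the partner genes, Dynlrb2, Ttc25 and Wdr63 had 1 each inside or within 5 kb, 3 of 27, against 3.88% of all protein-coding genes.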

How the data were processed

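The peak lists carry no header lines. Each row gives chromosome, start, end, a name and a score that the authors deposited without saying what it measures. In the HP1γ list it is 0 throughout and was not used. The submitters' processing notes name MACS2, edgeR, STAR 2.5.0a, Bowtie 1.0.0 and bcl2fastq 1.17, with mm10 (GRCm38) as the build, but no role, caller setting or filter.

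Starts were converted to count from 1. Gene positions came from a RefSeq table of GRCm38.p6. Protein-coding genes of chromosomes 1 to 19 and X were used, without those placed below 3 Mb. A peak counted for a gene if at least 1 bp lay in it. Exons, repeats and the DNA under peaks outside promoter windows were not analysed here. Of 30 symbols for dynein partners, 1 had no match and the rest gave 27 genes, some under older symbols. Intervals are exact Poisson intervals at 95%. Counting was tested on simulated data.

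The gene, the lists and the comparisons were chosen with earlier results of these data known. Named genes were Dnah genes, protein-coding neighbours within 100 kb, the 5 genes nearest in Adnp density, those that reach its HP1γ density, and listed genes with a peak inside. Non-coding neighbours and partner genes with a peak within 5 kb but not inside were added after their values were seen. The software was matplotlib 3.10.9, pandas 2.3.3, SciPy 1.17.1, NumPy 2.4.6 and Python 3.11.15.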

Additional observations from a re-analysis of the deposited data

How the results depend on the processing

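Dnah8 ranked 1 in Adnp density among genes of 200 to 300 kb and among Dnah genes under each of these alternatives: peak centres, peaks joined within 1 kb or 10 kb, the 50% of the list with the higher scores, and genes extended by 5 kb at each end. It also ranked 1 among genes of 150 to 400 kb and among genes of 200 to 300 kb on chromosome 17, where Dnah genes were not compared anew. Joining within 10 kb lowered its count to 12 and its density to 4.82 per 100 kb. The flank density was 5 with 50 kb on each side, 1.4 with 250 kb and 1.5 in the 50% with the higher scores, where Dnah8 itself had 8.84. Among alternatives added after the data were seen, the first, position-sorted part of the Adnp list alone also gave 26. No replicate could be left out, because the lists are pooled. No paired analysis was possible because the peak lists carry no replicate columns and no test was made. Depth is unknown, and intervals cover counting error only.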

Other observations

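The names of the peaks carry numbers that run in the order of position along each chromosome, with 0 exceptions in either list, and not all numbers are listed. The Adnp peaks in Dnah8 run from number 12512 to 12547, which spans 36 numbers, so 10 further numbers fall between the first and the last listed peak. If unlisted peaks follow the same order, these 10 lie inside the gene. Of the 36 numbers 72.2% are listed, against 48.2% of all Adnp numbers up to 31188. The gene was chosen by its listed count and the span begins and ends on listed peaks, which raises its share. Counted by numbers spanned, Dnah8 reached 14.5 per 100 kb and ranked 1 among genes of 200 to 300 kb. Pitpnc1 with 29 numbers (11.0 per 100 kb) and Rnf220 with 17 (7.54) followed. This count was chosen after the data were seen. It runs from the first to the last listed peak of a gene. It therefore rises with the listed count by which Dnah8 was chosen, and the rank is no separate result.

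The HP1γ numbering has a longer break in Dnah8. The listed peaks carry the numbers 1122 and 1129, and by the same order the 6 numbers between them fall inside the gene. In all, 75.8% of the HP1γ numbers up to 2701 are listed, but 25% of the 8 spanned in Dnah8. A run of 6 unlisted numbers is the longest in the list, reached by 3 of 1980 neighbouring pairs, while 77.9% of pairs have no number left out. No other gene of 200 to 300 kb spanned as many HP1γ numbers, Xkr6 coming next with 6. The peak before the gene has number 1121, so no number is left for the 612 kb before Dnah8. The next listed peak beyond the gene has number 1131, so an unlisted number remains between 1129 and that peak. Whether it falls inside the gene or beyond its end is not known. The list holds only peaks selected to lack the Adnp motif. Whether that selection left these numbers out was not tested, nor was any other reason. The positions and scores of the unlisted peaks are not known here.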
